A study of Homo sapiens with 6 samples.

Results

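The collagen chains were examined across RNA-seq libraries of 2 lines of human esophageal squamous cell carcinoma (ESCC). A gene was taken as a collagen chain when its symbol consisted of COL, a type number, A and a chain number, which selected 44 of the 58884 genes listed. The rule reads the symbol alone, and no symbol occurred more than once. KYSE70 is an established ESCC line with the W24C mutation in NFE2L2, the gene of the transcription factor NRF2. NRF2null-KYSE70 is a single clone grown from KYSE70 after CRISPR-Cas9 cutting in exon 2 of NFE2L2. The paper saw a faint band of smaller NRF2 protein in this clone and stated that loss of NRF2 was incomplete. Both lines were cultured untreated in the same serum-containing medium, and each had 3 libraries. A difference between the lines was thus a difference between 1 clone and its parental line, and the 3 libraries of a line, which were not stated to come from separate cultures, measured a spread that may be technical. Values are normalized counts, that is, reads per gene divided by a size factor per library.

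Collagens are the main structural proteins of the extracellular matrix, and their chains wind with partner chains into long helical trimers. Fibrillar collagens form the fibers of connective tissue, type IV collagens form the sheet of the basement membrane, and type VII collagen anchors that sheet to the fibers beneath it. Type XVII collagen spans the membrane of basal squamous epithelial cells at the hemidesmosome, the junction that holds them to the basement membrane. In stratified epithelia such as the esophagus, most fibrillar collagen is made by fibroblasts, whereas the epithelial cells contribute to the basement membrane and its anchorage.

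The libraries held between 52072801 and 63975313 gene-assigned reads. NFE2L2 transcript, whose level does not check the cut itself, was present in both lines, at 9928 ± 102 (SD, n = 3) in KYSE70 and 6093 ± 319 in NRF2null-KYSE70. The differential test was limma on log2(normalized count + 1) over the 15994 genes that averaged 10 or more, and a gene passed the threshold at a Benjamini-Hochberg adjusted p under 0.05 together with a log2 fold change of 1 or more in either direction. Fold changes are NRF2null-KYSE70 over KYSE70. Adding 1 understates the change of chains with few reads. All 9 listed squamous epithelial markers were abundant enough to be tested, among them KRT5, TP63 and SOX2. KRT14 was scarce, at 46.4 ± 17.5 in KYSE70 and 156 ± 54.4 in NRF2null-KYSE70, and passed the threshold (log2 fold change 1.74). The list summed to between 330083 and 337532 normalized counts in KYSE70 and between 256895 and 269362 in NRF2null-KYSE70. The largest part of that sum was KRT5, lower in the clone with TP63 and DSG3 at the adjusted p, whereas the other 6 (KRT6A, KRT14, KRT17, SOX2, CDH1 and EPCAM) were higher. Of 8 fibroblast markers, FAP, DCN and TCF21 had no read in any library, PDGFRA had none in KYSE70 and 2 in all in NRF2null-KYSE70, and LUM had 6 and 7. THY1, which differed by 0.15 on the log2 scale, made up most of that list's sum of 2370.1 to 2554 in KYSE70 and 2627 to 2890 in NRF2null-KYSE70. Without THY1 the sums were 5.44 to 17.9 and 51.7 to 93.6, mostly TWIST1, which passed the threshold (log2 fold change 2.29), and PDGFRB, with no read in KYSE70 and 41 in NRF2null-KYSE70.

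Of the 44 chains, 27 were abundant enough to be tested and 12 of these passed the threshold, a share of 44.4% beside 14.7% of all genes tested. In NRF2null-KYSE70, 7 chains were higher, beside 7.23% of all genes, and 5 were lower, beside 7.43%. The higher chains were COL13A1, COL4A1, COL12A1, COL4A3, COL26A1, COL17A1 and COL4A2. The lower chains were COL3A1, COL2A1, COL7A1, COL5A2 and COL1A1. At the adjusted p alone, 11 chains were higher, beside 29.3% of all genes, and 9 lower, beside 28.3%, or 20 of 27, beside 57.6%. The median log2 fold change of the tested chains was 0.14, beside -0.01 over all genes. For 21 of the 27 chains every library of a line lay on the same side of every library of the other, beside 63.4% of all genes. In bulk RNA, fewer cells that express a chain and less RNA per cell cannot be told apart.

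**Figure D1:**
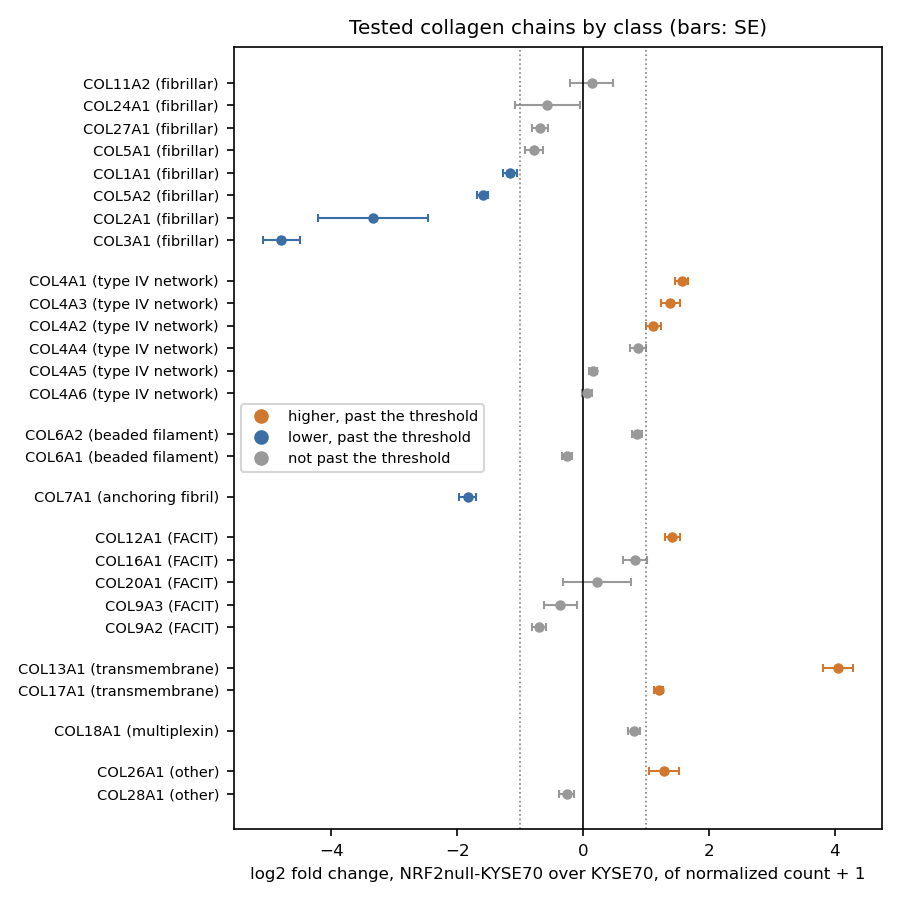
Log2 fold change (NRF2null-KYSE70 over KYSE70) of normalized count + 1 for the 27 tested collagen chains, grouped by class, with bars for the standard error of the fit and dotted lines at the fold cut-off. No fibrillar chain or COL7A1 is higher past the threshold, and no type IV or transmembrane chain is lower.

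The remaining 17 chains were near or below the limit of detection. COL1A2, COL9A1, COL6A5, COL22A1 and COL25A1 had no read in any of the 6 libraries, which allows up to 3 reads per library, or between 2.67 and 3.42 normalized counts. The other 12 had at least 1 read, and the highest value among them was 16.2, for COL11A1 in 1 NRF2null-KYSE70 library. They included all 3 short-chain network collagens (COL8A1, COL8A2 and COL10A1), and COL6A3, with 1 read in each of 3 libraries. These values cover counting error only, and a difference between the lines was not detectable at this depth.

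The transmembrane collagens held both the most abundant chain and the chain with the largest rise. COL17A1 (ENSG00000065618, chromosome 10, 104031286 to 104085880, minus strand), the hemidesmosomal type XVII collagen, was measured at 59597, 55468 and 53482 normalized counts in KYSE70 and 146332, 122286 and 120559 in NRF2null-KYSE70. Every NRF2null-KYSE70 library stood above every KYSE70 library, at a log2 fold change of 1.20 ± 0.07 (SE from limma, adjusted p = 2.4e-08). COL13A1 (ENSG00000197467, chromosome 10, 69801880 to 69964275, plus strand), a transmembrane collagen of cell adhesion sites, was measured at 16.01, 18.1 and 15.8 in KYSE70 and 365, 251 and 265 in NRF2null-KYSE70. It was scarce in every parental library and 17.6-fold higher on average in the clone, with a log2 fold change of 4.04 ± 0.24 (limma adjusted p = 1.84e-08). The other transmembrane chains, COL23A1 and COL25A1, were not tested, at no more than 12.2 and at 0.

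The stretches before the RefSeq transcript starts of both genes are shown (GRCh38.p14, 5′ to 3′ on the gene's strand, kept outside the exons of the GENCODE basic set). Capitals mark matches, on either strand, to any of 4 letter patterns: TGACNNNGC, the core of the antioxidant response element (ARE) bound by NRF2 with small MAF proteins, TGAGTCA (the AP-1 site), TATAAA (the motif of the TATA box) and GGGCGG (the GC box). An ARE core can contain the AP-1 letters in reverse complement.
COL17A1 (chr10:104085881-104086130, minus strand): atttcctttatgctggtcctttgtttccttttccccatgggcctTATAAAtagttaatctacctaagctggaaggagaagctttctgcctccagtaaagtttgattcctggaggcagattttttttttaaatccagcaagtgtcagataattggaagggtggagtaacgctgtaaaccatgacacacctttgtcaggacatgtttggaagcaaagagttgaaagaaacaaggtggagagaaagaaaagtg
COL13A1 (chr10:69801656-69801879, plus strand): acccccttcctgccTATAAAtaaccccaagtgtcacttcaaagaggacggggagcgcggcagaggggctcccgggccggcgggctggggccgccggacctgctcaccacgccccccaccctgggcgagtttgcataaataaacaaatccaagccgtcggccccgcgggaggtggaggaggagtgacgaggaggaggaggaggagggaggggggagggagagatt
Both stretches held TATAAA, 206 bases before the start of COL17A1 and 236 bases before that of COL13A1, and no other of the 4 patterns. The COL17A1 stretch was 40.4% G or C and the COL13A1 stretch 65.6%.

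All 6 type IV chains, the network of the basement membrane, were tested, and 3 passed the threshold, all higher (beside 7.23% of all genes). COL4A1 and COL4A2, the chains of the trimer found in basement membranes of nearly every tissue, lie head to head on chromosome 13. COL4A1 (ENSG00000187498, 110148963 to 110307157, minus strand) was measured at 6568, 5745 and 5548 in KYSE70 and 21760.5, 15752 and 15929 in NRF2null-KYSE70. COL4A2 (ENSG00000134871, 110305812 to 110513209, plus strand) was measured at 6901, 5969 and 5555 and at 16792.5, 11986 and 11527. Both were higher in every library of the clone, by 1.57 ± 0.11 (limma adjusted p = 6.4e-08) and 1.11 ± 0.12 (limma adjusted p = 4.65e-06) on the log2 scale. COL4A2 stood near the cut-off: it did not pass without NRF2null-KYSE70 library 1 (log2 fold change 0.94), nor after the median of its chromosome arm was subtracted (0.98).

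The trimer of COL4A3 and COL4A4 with COL4A5 is best known from the kidney glomerulus. COL4A3 (ENSG00000169031, chromosome 2, 227164624 to 227314792, plus strand) was measured at 101.4, 112 and 115 in KYSE70 and 275, 309 and 279.7 in NRF2null-KYSE70. The groups did not overlap, with a log2 fold change of 1.38 ± 0.15 (limma adjusted p = 4.75e-06). Exons of MFF-DT, on the opposite strand, covered 6.82% of its exon bases, and whether the counting used strand was not stated. Its head-to-head neighbour COL4A4 was measured at 379, 359 and 378 and at 839.8, 607 and 616. COL4A4 was higher in every clone library, but by 0.87 (limma adjusted p = 6.67e-05), below the fold cut-off.

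COL4A5 and COL4A6, partners in epithelial basement membranes, lie head to head on the X chromosome and did not pass. COL4A5 (ENSG00000188153) was measured at 12218, 11321 and 11086 in KYSE70 and 14274, 12002.5 and 12302 in NRF2null-KYSE70. COL4A6 (ENSG00000197565) was measured at 1482.5, 1299.8 and 1336 and at 1567, 1314 and 1418. The lines overlapped for both, with log2 differences of 0.15 (limma adjusted p = 0.062) and 0.06 (limma adjusted p = 0.549), the second of which changed sign under total scaling (-0.015) and without NRF2null-KYSE70 library 1 (-0.0059).

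The type IV pairs share the space between their starts, and the stretch on the side of the plus-strand gene is shown for each pair.
COL4A2 (chr13:110307158-110307257, plus strand): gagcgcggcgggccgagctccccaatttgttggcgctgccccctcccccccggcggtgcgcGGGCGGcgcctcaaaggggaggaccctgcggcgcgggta
COL4A3 (chr2:227164374-227164623, plus strand): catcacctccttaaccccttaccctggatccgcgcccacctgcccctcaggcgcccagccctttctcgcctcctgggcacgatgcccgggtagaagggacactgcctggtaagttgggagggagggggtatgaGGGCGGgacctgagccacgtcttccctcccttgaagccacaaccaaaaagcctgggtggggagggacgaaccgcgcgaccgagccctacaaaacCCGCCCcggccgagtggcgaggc
COL4A5 (chrX:108439588-108439837, plus strand): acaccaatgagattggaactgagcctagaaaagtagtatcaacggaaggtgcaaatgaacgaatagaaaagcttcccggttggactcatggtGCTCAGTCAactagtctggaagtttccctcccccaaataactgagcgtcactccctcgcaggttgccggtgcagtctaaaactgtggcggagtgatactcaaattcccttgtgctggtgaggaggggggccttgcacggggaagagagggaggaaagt
RefSeq starts of COL4A1 and COL4A2 lay 126 bases apart, those of COL4A4 and COL4A3 418, and the nearest starts of COL4A6 and COL4A5 379. The COL4A2 and COL4A3 stretches held GC boxes. The COL4A5 stretch held the ARE core as GCTCAGTCA, 158 bases before its start, and these 9 bases were also the match in a COL4A6 window, 230 bases before that start on the other strand.

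**Figure D2:**
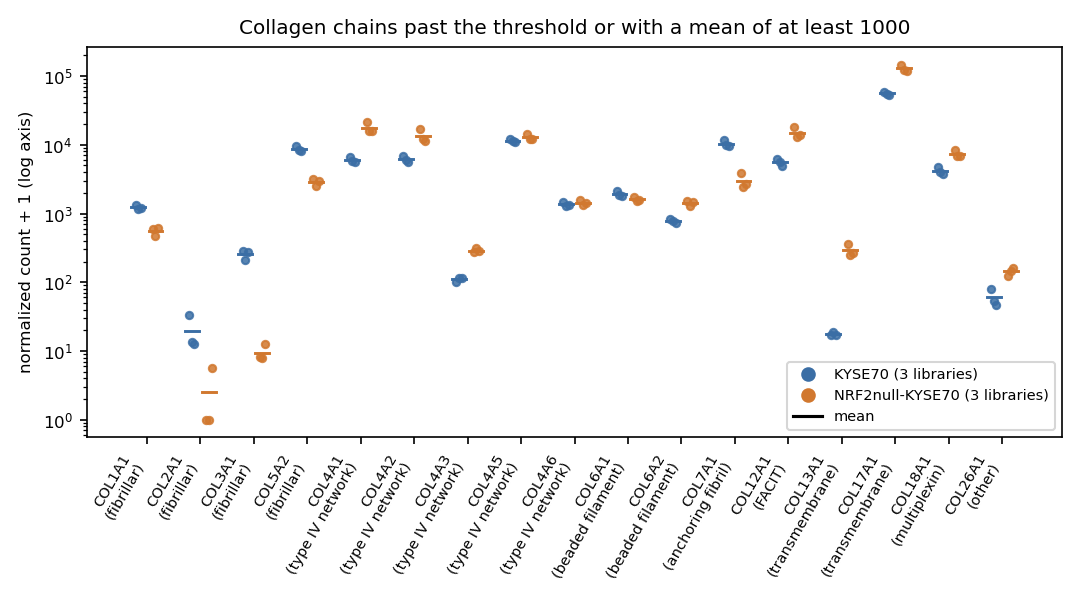
Normalized count + 1 in each library (log axis; dots, 3 libraries per line; horizontal lines, means) for the 17 collagen chains that passed the threshold or had a mean of at least 1000. The NRF2null-KYSE70 libraries lie below all KYSE70 libraries for COL1A1, COL2A1, COL3A1, COL5A2, COL6A1 and COL7A1, and the lines overlap for COL4A5 and COL4A6.

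The fibrillar chains were the class with the most losses. Of 11 chains, 8 were tested, 4 fell past the threshold (beside 7.43% of all genes), 6 were lower at the adjusted p alone (beside 28.3%) and none was higher by either rule, with a class median of -0.97. COL5A2 (ENSG00000204262, chromosome 2, 189031898 to 189225312, minus strand), a chain of the type V collagen that starts fibril assembly, was the most abundant of them. It was measured at 9575, 8349 and 8083 in KYSE70 and 3164, 2532 and 2930.5 in NRF2null-KYSE70. The groups were far apart, and COL5A2 fell by 1.59 ± 0.08 on the log2 scale (limma adjusted p = 5.82e-09). Its partner COL5A1 averaged 1030.5 ± 153 and 604 ± 124, lower by 0.78 (limma adjusted p = 0.000407) and so short of the fold cut-off.

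COL3A1 (ENSG00000168542, chromosome 2, 188974373 to 189012746, plus strand), the type III chain of distensible tissues such as vessel walls, ends 19151 bases from the end of COL5A2. It was measured at 282, 212 and 276 in KYSE70 and 7.10, 6.86 and 11.4 in NRF2null-KYSE70. The clone kept 3.29% of the parental mean, and the log2 fold change was -4.79 ± 0.29 (limma adjusted p = 2.63e-08). The nearest 40 protein-coding genes that averaged 50 or more, 20 to each side of the pair, the window used for neighbours throughout, had a median log2 fold change of 0.00. NFE2L2 lies on the same chromosome, 11.6 Mb from COL3A1.

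COL1A1 (ENSG00000108821, chromosome 17, 50184101 to 50201632, minus strand), the main chain of type I collagen, was measured at 1333, 1172 and 1189 in KYSE70 and 593, 463 and 605 in NRF2null-KYSE70. All clone libraries were lower, and COL1A1 fell by 1.16 ± 0.11 on the log2 scale (limma adjusted p = 1.31e-06). COL1A2, its usual partner in type I collagen, had no read in either line. COL2A1 (ENSG00000139219, chromosome 12, 47972967 to 48004554, minus strand), the cartilage collagen, was scarce, at 32.0, 12.7 and 11.6 in KYSE70 and at 0, 0 and 4.57 in NRF2null-KYSE70. Its log2 fold change of -3.33 ± 0.87 (limma adjusted p = 0.00548) rested on these few reads, and over the alternatives run it lay between -5.55 and -1.84. COL27A1 averaged 761 ± 86.8 and 475 ± 80.5, lower by 0.69 on the log2 scale and at the adjusted p alone. The 40 neighbours of COL27A1 had a median log2 fold change of -0.35. Those of COL5A1 had -0.31, those of COL2A1 -0.24 and those of COL1A1 -0.06. After the arm median was subtracted, COL27A1 was at -0.54 and COL5A1 at -0.63. The part of the nearer regions in these results was not tested. COL11A2 and COL24A1, at means of 14.6 to 28.2, did not pass.

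COL7A1 (ENSG00000114270, chromosome 3, 48564073 to 48595329, minus strand) encodes the chain of the anchoring fibrils beneath squamous epithelia. It was measured at 11772, 9932 and 9621 in KYSE70 and 3842, 2415 and 2670.2 in NRF2null-KYSE70. The lowest parental library was above the highest clone library by a wide margin, and COL7A1 fell by 1.83 ± 0.13 on the log2 scale (limma adjusted p = 1.41e-07). Its 40 neighbours on 3p had a median log2 fold change of -0.65 and the arm -0.48. After the arm median was subtracted the value for COL7A1 was -1.35, still beyond the fold cut-off. The adjusted p was not recomputed for the subtracted value.
COL7A1 (chr3:48595330-48595579, minus strand): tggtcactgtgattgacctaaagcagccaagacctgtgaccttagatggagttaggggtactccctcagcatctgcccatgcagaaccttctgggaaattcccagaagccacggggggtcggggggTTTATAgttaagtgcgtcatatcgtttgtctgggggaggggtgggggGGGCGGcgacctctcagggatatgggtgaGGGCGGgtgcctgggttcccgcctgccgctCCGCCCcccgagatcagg
This stretch before the COL7A1 start held the TATA letters on the opposite strand, 124 bases before the start, and 3 GC boxes nearer to it.

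Collagens that sit on fibrils or between fibers and basement membrane differed by chain. COL12A1 (ENSG00000111799, chromosome 6, 75084326 to 75206267, minus strand), a FACIT (fibril-associated collagen with interrupted triple helices) of the fibril surface, was measured at 6264, 5592 and 4874 in KYSE70 and 18223, 12822 and 14019 in NRF2null-KYSE70. All clone libraries were higher, with a log2 fold change of 1.42 ± 0.11 (limma adjusted p = 3.15e-07). It was the only FACIT of 5 tested to pass, beside 14.7% of all genes. COL16A1 (0.82) was higher and COL9A2 (-0.70) lower at the adjusted p alone, by which 57.6% of all genes differed. COL9A3 and COL20A1 did not pass by either rule.
COL12A1 (chr6:75206054-75206303, minus strand): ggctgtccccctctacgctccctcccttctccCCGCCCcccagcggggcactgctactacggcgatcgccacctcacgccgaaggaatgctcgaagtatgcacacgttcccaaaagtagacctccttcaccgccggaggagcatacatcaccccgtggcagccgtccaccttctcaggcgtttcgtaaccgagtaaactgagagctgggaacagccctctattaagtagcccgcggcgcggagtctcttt
The COL12A1 stretch held 1 GC box, 218 bases before the start.

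COL18A1 (ENSG00000182871, chromosome 21, 45405165 to 45513720, plus strand), a multiplexin of basement membranes and the precursor of endostatin, was measured at 4699, 3965 and 3809.9 in KYSE70 and 8390.2, 6774 and 6772 in NRF2null-KYSE70. It was higher in every clone library, by 0.81 ± 0.09 (limma adjusted p = 6.83e-06), short of the fold cut-off. Exons of SLC19A1, on the opposite strand, covered 18.5% of its exon bases. Its 30 neighbours, fewer so near the chromosome end, had a median log2 fold change of 0.54, and the arm 0.27. After the arm median was subtracted the value for COL18A1 was 0.55. The part of the nearer region in the result was not tested.

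Type VI collagen forms beaded filaments from COL6A1, COL6A2 and a longer partner chain. COL6A1 (ENSG00000142156, chromosome 21, 45981770 to 46005050, plus strand) was measured at 2149, 1858 and 1797 in KYSE70 and 1752, 1519 and 1595 in NRF2null-KYSE70. COL6A2 (ENSG00000142173, 46098112 to 46132848, plus strand), 93061 bases further along, was measured at 840.4, 767 and 735 and at 1501, 1288.5 and 1456. The chains went in opposite directions, which brought their levels closer: COL6A1 was lower by 0.25 ± 0.08 (limma adjusted p = 0.0169) and COL6A2 higher by 0.86 ± 0.08 (limma adjusted p = 2.19e-06), both within the fold cut-off. The adjusted p of COL6A1 missed 0.05 without KYSE70 library 1 (limma adjusted p = 0.0886), without NRF2null-KYSE70 library 2 (0.0719) and in limma without the trend (0.0746). It was lowest without NRF2null-KYSE70 library 1 (limma adjusted p = 0.00158). COL6A1 also did not pass limma's treat test, which asks for a change beyond the fold cut-off rather than any change. Their 28 neighbours had a median log2 fold change of 0.55. After the arm median was subtracted, COL6A1 was at -0.52 and COL6A2 at 0.59. None of the longer chains was expressed above the floor, since COL6A3 had 3 reads and COL6A6 1 read over all 6 libraries and COL6A5 none.

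COL26A1 (ENSG00000160963, chromosome 7, 101362875 to 101559024, plus strand), a little-studied secreted collagen, was measured at 79.2, 52.6 and 45.3 in KYSE70 and 122.7, 147 and 158 in NRF2null-KYSE70. The groups did not overlap, with a log2 fold change of 1.29 ± 0.24 (limma adjusted p = 0.000545). COL28A1, another chain outside the main classes, averaged 379.7 ± 32.2 and 316 ± 8.26 and did not pass (limma adjusted p = 0.0664).

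Levels were compared between chains after division by the exon length of each gene, in normalized counts per kb. In KYSE70 the order was COL17A1 (8039 ± 446), COL5A2 (1184 ± 109), COL4A5 (972 ± 50.3), COL7A1 (938 ± 104), COL18A1 (491 ± 56.1) and COL4A1 (406 ± 36.9). The libraries of COL4A5 and COL7A1 overlapped, and those of COL18A1 and COL4A1 were barely apart. In NRF2null-KYSE70 the order was COL17A1 (18561.4 ± 2061), COL4A1 (1215 ± 233), COL4A5 (1083 ± 104), COL18A1 (864 ± 110), COL12A1 (796 ± 150) and COL4A2 (697 ± 151), in which COL4A1 and COL4A5, COL18A1 and COL12A1, and COL12A1 and COL4A2 overlapped. COL5A2 and COL7A1, both among the 4 highest in the parental line, stood at 393 ± 43.6 and 267 ± 68.4 in the clone, below all of these. Exon length here covers every annotated exon of a gene, and the order depended on it. With the length of the canonical transcript, an alternative added after seeing the data, COL4A5 (1767 ± 91.4) came above COL5A2 (1269 ± 117) in KYSE70, and COL4A2 (953 ± 107) and COL4A1 (910.3 ± 82.7) above COL18A1 (769 ± 87.9). In NRF2null-KYSE70, COL4A1 (2724 ± 523) was then followed by COL4A2 (2084 ± 452), but their libraries overlapped, as did those of COL4A2 and COL4A5. With these lengths the KYSE70 libraries of COL4A1 and of COL4A2 also overlapped those of COL18A1. COL17A1 was the highest chain in both lines with either length.

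Summed over the 44 chains, the collagen level per kb was 13886 ± 950 in KYSE70 and 25056 ± 2985 in NRF2null-KYSE70, 1.80-fold higher. All 3 clone libraries exceeded the parental ones, and a two-sided exact permutation test gave p = 0.1, the smallest that 3 against 3 allows. COL17A1 alone accounted for 57.9% ± 0.775 of the sum in KYSE70 and 74.1% ± 0.758 in NRF2null-KYSE70. Without it the sums were 5847 ± 507 and 6495 ± 934, 1.11-fold higher and within the spread of the libraries. Fibrillar chains made up 10.9% ± 0.188 of the sum in KYSE70 and 2.20% ± 0.151 in NRF2null-KYSE70, and COL7A1 6.74% ± 0.286 and 1.06% ± 0.143. Type IV chains made up 13.6% ± 0.0557 and 12.9% ± 0.474, or 20.4% ± 0.124 and 20.2% ± 0.815 with canonical transcript lengths. With those lengths COL17A1 made up 52.6% ± 0.759 and 66.1% ± 0.993, and the fibrillar chains 9.21% ± 0.130 and 1.88% ± 0.123. All of these are shares of a total that was higher in the clone, so they do not give the change in level. Per kb of exon, type IV chains summed to 1885 ± 132 in KYSE70 and 3231 ± 510 in NRF2null-KYSE70, 1.71-fold higher and without overlap. Fibrillar chains summed to 1516 in KYSE70 and 551 in NRF2null-KYSE70 (0.363-fold), and COL7A1 was at 0.285-fold.

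**Figure D3:**
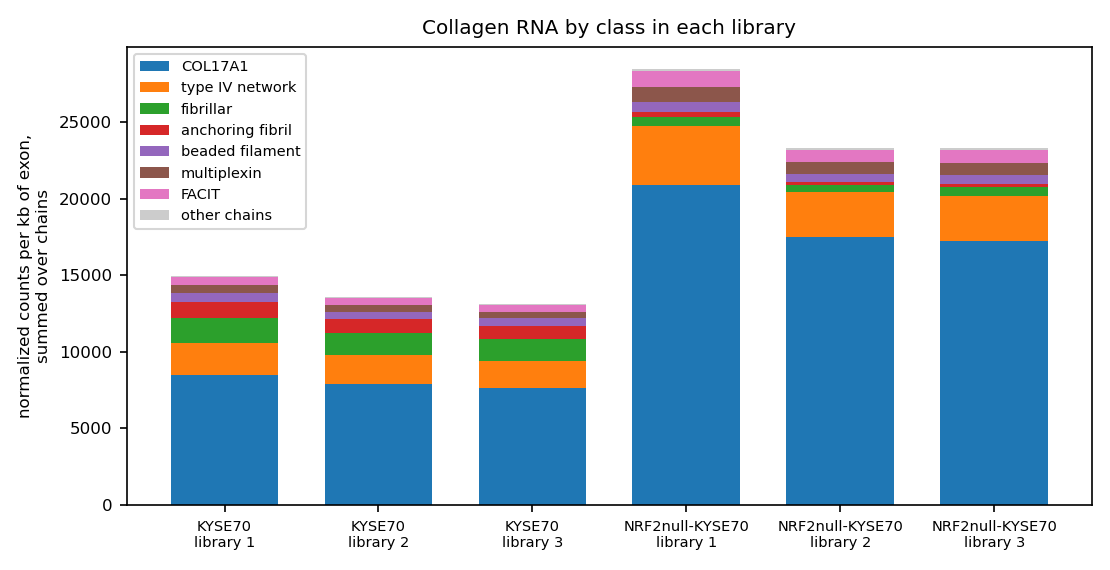
Normalized counts per kb of exon, summed over collagen chains and stacked by class, in each of the 6 libraries, with COL17A1 set apart from the other chains. COL17A1 takes 57.0% to 58.4% of each KYSE70 bar and 73.5% to 74.9% of each NRF2null-KYSE70 bar, and the fibrillar and anchoring fibril (COL7A1) bands are thinner in the clone.

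Because partner chains assemble together, their balance was compared as a log2 ratio of normalized count + 1 within each library. Of 11 pairs listed, 7 had both chains tested, and the exact permutation tests (two-sided, smallest possible p = 0.1) were adjusted over these 7. The ratio of COL6A1 to COL6A2 was 1.31 ± 0.04 in KYSE70 and 0.20 ± 0.06 in NRF2null-KYSE70, a difference of -1.11 with no overlap. COL4A1 over COL4A2 went from -0.04 ± 0.04 to 0.41 ± 0.05, and COL4A3 over COL4A4 from -1.75 ± 0.12 to -1.24 ± 0.33. COL5A1 over COL5A2 was -3.08 ± 0.14 and -2.26 ± 0.17, with the larger difference in COL5A2. The neighbours COL3A1 and COL5A2 differed most, from -5.08 ± 0.21 to -8.27 ± 0.37. For these 5 pairs the exact p was 0.1 and the adjusted p 0.14, so none can pass in this design. COL4A5 over COL4A6 (difference 0.09, exact p = 0.2) and COL9A2 over COL9A3 (difference -0.34, exact p = 0.5) overlapped between the lines. Ratios of other gene pairs were not computed, and 63.4% of all genes tested, taken singly, did not overlap.

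**Figure D4:**
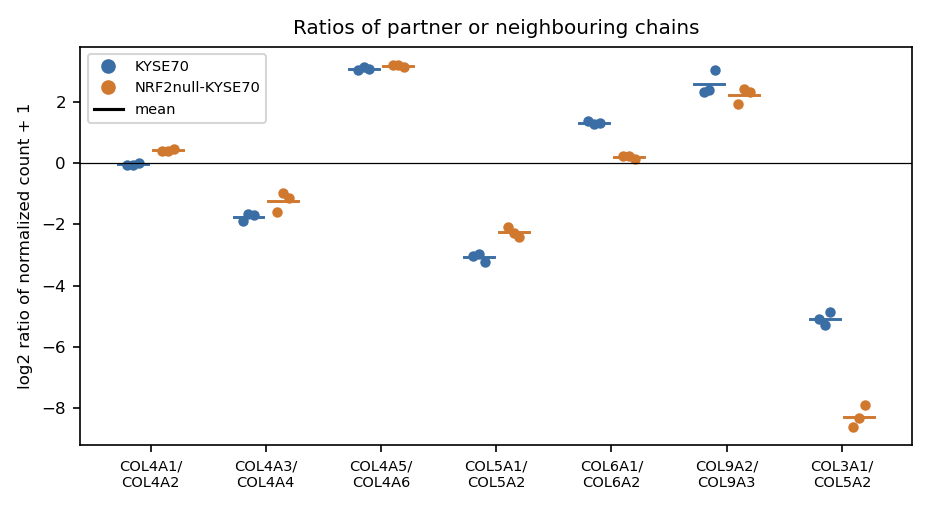
Log2 ratio of normalized count + 1 between the chains of each pair, by library (dots) with the mean of each line (horizontal lines). The lines are separate for 5 of the 7 pairs and overlap for COL4A5/COL4A6 and COL9A2/COL9A3. Taken singly, 63.4% of all genes tested are separate.

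Of the 44 chains, 32 had promoter windows of 300 bases in the RefSeq table, 44 windows in all, since some genes have several starts. Shares are therefore given per window, as for the 35116 windows of all genes. The ARE core occurred in 3 windows (6.82%, beside 13.35%), those of COL21A1 and the shared site of COL4A5 and COL4A6. TGAGTCA occurred in none, beside 4.95%. TATAAA occurred in 8 windows (18.2%, beside 11.5%) of 7 genes, and GC boxes in 24 (54.5%, beside 44.95%) of 21 genes. Of the 12 chains past the threshold 8 had a window, and COL1A1, COL2A1, COL3A1 and COL5A2 did not. Among those 8, COL7A1 was the only lower chain, none held an ARE core, COL17A1, COL13A1 and COL7A1 held TATAAA, and 5 held a GC box. These are counts of letters in a short window and do not show that a factor bound there.

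Genes that modify, fold, process and cross-link collagen were examined from a list of 36, of which 31 were tested and 7 passed the threshold (22.6%, beside 14.7% of all genes), 3 higher and 4 lower. Chains are hydroxylated before they fold. PLOD2, the lysyl hydroxylase of the chain ends, was low and higher in the clone, at 4.40 ± 0.164 and 22.7 ± 3.54 (log2 fold change 2.12). Among prolyl 3-hydroxylases, P3H2, which acts on type IV chains, was higher, at 1890.2 ± 101.4 and 4138 ± 222 (1.13), while P3H3 was lower, at 807 ± 76.9 and 219.8 ± 17.9 (-1.87). P3H2 did not pass after its arm median was subtracted (0.85). In propeptide processing, the protease TLL1 fell by 1.13 and the enhancer protein PCOLCE2 by 1.25 on the log2 scale. Of the lysyl oxidases that cross-link collagen, LOXL3 fell from 139 ± 22.9 to 6.37 ± 2.39 (log2 fold change -4.29), and LOXL4 rose by 1.01, a call lost without KYSE70 library 2 (0.90) and without NRF2null-KYSE70 library 1 (0.89) or 3 (0.90). LOX had no read in KYSE70 and 12 in all in NRF2null-KYSE70. At the adjusted p alone 12 genes of the list were higher and 6 lower, 18 of 31, which is close to the 57.6% of all genes that differed by that rule, and the list's median was 0.10.

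Of 10 collagen receptors 7 were tested, and 2 passed, both higher (28.6%, beside 14.7% of all genes). ITGA2, the integrin chain that binds collagen on epithelial cells, was measured at 6996, 6415 and 5708 in KYSE70 and 19788, 16238 and 15957 in NRF2null-KYSE70, with no overlap and a log2 fold change of 1.44 ± 0.09 (limma adjusted p = 2.04e-08). DDR2, a receptor tyrosine kinase for fibrillar collagen, was low and rose from 10.3 ± 2.69 to 42.8 ± 13.1 (1.94). Its family member DDR1, with the integrin chain ITGB1 and the uptake receptor MRC2, was higher at the adjusted p alone, and no tested receptor was lower by either rule. ITGA10, an integrin chain too low to be tested, had 48 reads in KYSE70 and 2 in NRF2null-KYSE70, at least 4.84-fold lower and without overlap, and without the filter on low values 3 receptors passed, 2 higher and 1 lower. Of 12 proteins that bind basement membranes or fibrils, 6 were tested and 2 passed (33.3%, beside 14.7% of all genes), 1 higher and 1 lower. THBS1, a matricellular protein, was 8.96-fold higher, at 36063 ± 2824 and 322949 ± 29724. NID1, which links laminin to type IV collagen, was lower, at 164 ± 46.9 and 46.1 ± 12.8 (log2 fold change -1.81). The other basement membrane proteins tested, AGRN (0.72) and HSPG2 (0.47), were higher at the adjusted p alone, and FN1 and TNXB did not pass by either rule. SPARC, too low to be tested, had 10 reads in KYSE70 and 47 in NRF2null-KYSE70, without overlap.

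**Figure D5:**
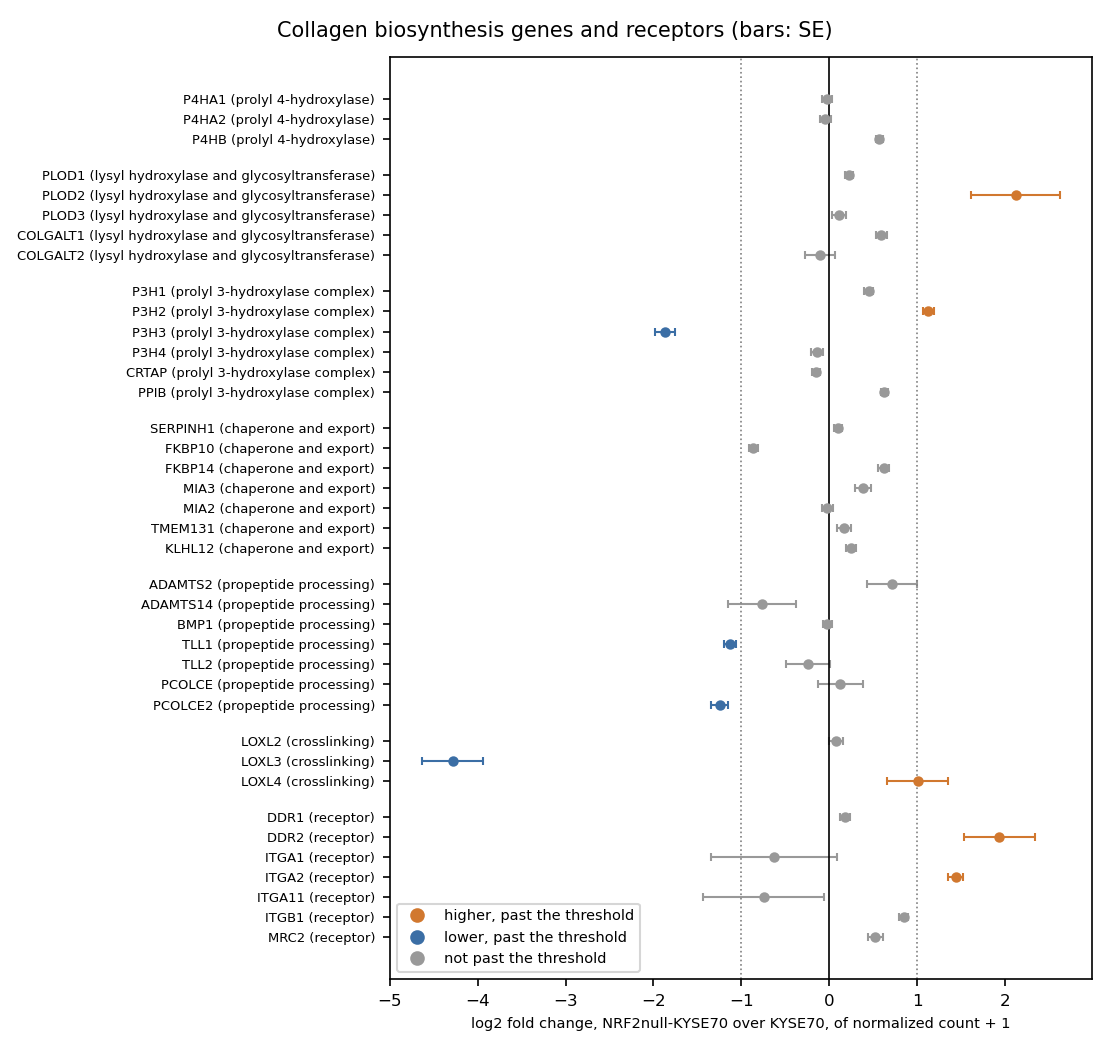
Log2 fold change (NRF2null-KYSE70 over KYSE70) of normalized count + 1 with standard error for the tested collagen biosynthesis genes and receptors, grouped by role. PLOD2, P3H2, LOXL4, DDR2 and ITGA2 lie above the upper cut-off, and P3H3, TLL1, PCOLCE2 and LOXL3 below the lower.

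Libraries of a line were not alike for these genes. KYSE70 library 1 was the highest of its line for 19 of the 27 tested chains (70.4%, beside 36.3% of all genes tested), and NRF2null-KYSE70 library 1 for 18 (66.7%, beside 40.8%). By chi-square on the recovered reads, NRF2null-KYSE70 library 1 was also the farthest from its own line, at 25.6 and 25.1 per degree of freedom, where other pairs of a line gave 4.75 to 13.5. Without NRF2null-KYSE70 library 1, 11 chains passed, 6 higher and 5 lower, and COL4A2 was the chain lost. Without KYSE70 library 1, the same 12 passed. Markers of other cell types also differed between the lines: besides TWIST1, VWF (142 ± 8.46 and 353 ± 88.8) and PTPRC (1 read in all in KYSE70 and 43.6 ± 3.96 in NRF2null-KYSE70, at least 15.3-fold higher) passed the threshold, whereas CD79A, too low to be tested, went the other way without overlap, with 34 reads in KYSE70 and 1 in NRF2null-KYSE70, and CD14 had 9 and 13. The endothelial markers PECAM1, CDH5 and KDR and the leukocyte marker CD3E had at most 1 read in either line. The endothelial list of 4 summed to 133 to 149 in KYSE70 and 275 to 450.3 in NRF2null-KYSE70, and the leukocyte list of 4 to 8.004 to 24.3 and 42.2 to 58.2. Their part in the collagen results was not tested.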

How the data were processed

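RNA from 3 libraries each of KYSE70 and NRF2null-KYSE70 was sequenced from NEBNext Ultra libraries. The authors filtered reads (FastQC 0.11.5, cutadapt 1.12), aligned them with STAR 2.6.90c to hg38 and counted genes with featureCounts 1.5.1. They deposited a signal per gene, the reads after DESeq2 size-factor scaling (normalized counts). Whether counting used strand was not stated, and the methods named RefSeq whereas rows carried Ensembl identifiers. Columns carried the line's name only, so libraries are numbered by table order.

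Whole reads were recovered: values were multiples of 1 read, worth 0.889 to 1.14, in 100% of cases (tolerance 0.02). Reads and floors cover counting error only. limma 3.58.1 (R 4.3.3; lmFit, eBayes with trend, two-sided) was run on log2(normalized count + 1) over genes with a mean of at least 10, and scripts were tested on simulated data. DESeq2 1.42.0 and edgeR 4.0.16 were alternatives on recovered reads, both making 12 collagen calls, and 2341 and 2350 over all genes. Exact permutation tests used scipy 1.17.1. Positions, exon lengths and overlaps came from GENCODE v44 on hg38, promoters from RefSeq (GRCh38.p14). Chains past the threshold or with a mean of at least 1000 were named with every value, and listed genes where they passed. Members and lists were chosen with earlier results of these data known.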

Additional observations from a re-analysis of the deposited data

How the results depend on the processing

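Of the 12 chains past the threshold, none changed direction under the 20 alternatives, of which COL2A1 had 19. Alternatives that changed only the filter, the variance model or the cut-off kept the same fold change and could not reverse it. Nor could a called chain fail when the fold cut-off was dropped. Leaving aside limma's treat test against the cut-off and a filter at a mean of 50, 11 passed under all alternatives. The number of collagen chains past the threshold was 20 without a fold cut-off (11 higher, 9 lower), 6 with treat (3 and 3), and 11 to 12 with 1 library left out. COL1A1, COL2A1, COL26A1, COL17A1, COL4A2 and COL4A3 were the chains lost with treat. Over all genes the count of 2344 became 1511 with a filter at a mean of 50, 9206 without the fold cut-off and 970 with treat, and 2228 to 2346 with 1 library left out. Without the fold cut-off, 18 of 31 biosynthesis genes, 5 of 7 receptors and 4 of 6 partners passed, beside 57.6% of all genes. With treat these were 2, 1 and 1, and with the filter at 50, 1 receptor passed. With 1 library left out they ranged from 6 to 7, stayed at 2 and ranged from 2 to 3. LOXL4 lost its call under 9 of 19 alternatives.

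The log2 fold change of COL20A1, 0.22, reversed without KYSE70 replicate 3 (-0.00065), NRF2null-KYSE70 replicate 1 (-0.078) or replicate 2 (-0.055), and reached 0.80 without NRF2null-KYSE70 replicate 3, while that of COL4A6 reversed under total scaling (-0.015) or without NRF2null-KYSE70 replicate 1 (-0.0059). Neither had passed the test, and the cause was not tested. The log2 difference of the summed collagen level, 0.85, lay between 0.75 and 0.91 with 1 library left out, was 0.15 without COL17A1 and was 0.88 with canonical transcript lengths, an alternative chosen after seeing the data. Left-out libraries moved the pair differences to between 0.43 and 0.47 (COL4A1/COL4A2), 0.38 and 0.70 (COL4A3/COL4A4), 0.08 and 0.12 (COL4A5/COL4A6), 0.73 and 0.89 (COL5A1/COL5A2), -1.13 and -1.08 (COL6A1/COL6A2), -0.47 and -0.12 (COL9A2/COL9A3), and -3.39 and -3.03 (COL3A1/COL5A2). No paired analysis was possible because columns named the cell line alone, with no replicate number. Depth limited the 17 untested chains, and 1 clone stood for the edited genotype.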

Other observations

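Beside the chains, 9 other rows carried a collagen symbol. The pseudogene COL6A4P1 was measured at 78.3, 80.7 and 54.8 normalized counts in KYSE70 and 32.5, 12.7 and 15.98 in NRF2null-KYSE70, without overlap, and passed the threshold as lower (limma adjusted p = 0.000998). COL18A1-AS2, antisense to COL18A1, reached at most 10.1, and the other antisense rows (COL18A1-AS1, COL4A2-AS1, COL4A2-AS2 and COL5A1-AS1) held at most 1 read in a library. The pseudogenes COL11A2P1 and COL6A4P2 held at most 2 reads. COL4A3BP, which encodes a ceramide transport protein and no collagen chain, did not differ past the test (limma adjusted p = 0.122).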
